A study of Mus musculus and Rattus norvegicus with 32 samples.

Results

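The MAPK feedback genes examined here are 10 genes that restrain the Ras-ERK pathway, 5 dual-specificity phosphatases (Dusp1, Dusp2, Dusp4, Dusp5 and Dusp6), 3 Sprouty genes (Spry1, Spry2 and Spry4) and the Sprouty-related genes Spred1 and Spred2. They were chosen by symbol, and all 10 were found among the 55487 genes of each mouse table and the 32883 genes of the rat table. After a filter on low counts, 10 of them were tested at 1 month, 10 at 3 months, 9 after pressure overload and 10 in rat cardiomyocytes, of 16329, 16391, 16340 and 15041 genes tested. RNA had been sequenced in 32 libraries, with 4 per group. Hearts of 1-month-old C57BL/6 mice were labelled METTL5-KO (loss of the 18S rRNA m6A methyltransferase METTL5 in the whole body) or Ctrl. Hearts of 3-month-old C57BL/6 mice were labelled METTL5-cKO or Ctrl, where METTL5-cKO mice carried METTL5 fl/fl and an αMHC-Cre (Myh6-Cre) transgene, which is active in cardiomyocytes and leaves METTL5 intact in the other cells of the heart. Hearts of the same 2 kinds of mice, also labelled 3-month-old, were taken 4 weeks after transverse aortic constriction (TAC), which loads the left ventricle with pressure. The labels call the control mice only Ctrl, and the hearts of the 3-month table were not described as sham-operated. Neonatal rat ventricular myocytes (NRVMs, from Sprague Dawley rats at postnatal day 2) had received an adenovirus with human METTL5 (AdMETTL5) or GFP (AdGFP), and both groups had then been treated with 20 μM phenylephrine (PE), an α1-adrenergic agonist that induces hypertrophic growth, for 24 h. Nothing in the labels ties a library to a single animal or culture beyond its replicate name, so p-values measure the spread between these libraries.

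The ERK cascade runs from receptors for growth factors, or from α1-adrenergic receptors, through Ras and MEK to the kinases ERK1 and ERK2, and in cardiomyocytes it is a well-known branch of hypertrophic signaling. Active ERK induces genes that switch it off again. The Dusp proteins remove phosphate from MAP kinases, and Sprouty and Spred proteins act further up, between the receptor and MEK. Since their RNA commonly follows ERK activity, the RNA of these genes is often read as a footprint of the pathway, although each also has other inducers.

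The promoters of the mouse genes are shown as a description of the elements they hold. A link between these elements and the direction in which a member moved was not tested. Promoters of 300 bases (250 before to 50 after the annotated start, RefSeq, GRCm38.p6) were found for 8 of the 10 members, all but Dusp4 and Spry4. They were searched on both strands for the cAMP response element TGACGTCA, the AP-1 element TGANTCA, the ETS element CCGGAAGT, the EGR element GCGNGGGCG and the CArG box bound by serum response factor. Shown are the promoters found for the members that passed the test in NRVMs, Dusp2 and Dusp5, which held a match, and Spry1, Spry2 and Spred2, which held none. Dusp1 did not pass the test and was added because it held a match, after its sequence and values had been seen. Capitals mark the matches.
Dusp1, chr17:26508423-26508722, minus strand: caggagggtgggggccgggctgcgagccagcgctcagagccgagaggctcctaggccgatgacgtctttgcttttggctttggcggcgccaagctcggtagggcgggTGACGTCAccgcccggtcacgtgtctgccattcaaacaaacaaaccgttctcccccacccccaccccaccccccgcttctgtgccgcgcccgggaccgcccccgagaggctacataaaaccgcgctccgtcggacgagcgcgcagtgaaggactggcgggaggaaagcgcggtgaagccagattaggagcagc
Dusp2, chr2:127335909-127336208, plus strand: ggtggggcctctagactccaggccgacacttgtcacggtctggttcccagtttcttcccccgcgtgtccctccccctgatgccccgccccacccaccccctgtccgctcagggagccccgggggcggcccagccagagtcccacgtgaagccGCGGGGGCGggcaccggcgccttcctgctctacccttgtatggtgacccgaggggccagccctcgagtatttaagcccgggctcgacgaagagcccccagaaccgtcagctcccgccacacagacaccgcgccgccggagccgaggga
Dusp5, chr19:53528895-53529194, plus strand: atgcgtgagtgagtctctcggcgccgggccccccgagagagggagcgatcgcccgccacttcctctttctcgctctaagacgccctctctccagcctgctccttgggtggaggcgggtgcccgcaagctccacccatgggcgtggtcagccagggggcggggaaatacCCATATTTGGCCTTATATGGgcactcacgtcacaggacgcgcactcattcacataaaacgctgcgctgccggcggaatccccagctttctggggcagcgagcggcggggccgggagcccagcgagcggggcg
Spry1, chr3:37639697-37639996, plus strand: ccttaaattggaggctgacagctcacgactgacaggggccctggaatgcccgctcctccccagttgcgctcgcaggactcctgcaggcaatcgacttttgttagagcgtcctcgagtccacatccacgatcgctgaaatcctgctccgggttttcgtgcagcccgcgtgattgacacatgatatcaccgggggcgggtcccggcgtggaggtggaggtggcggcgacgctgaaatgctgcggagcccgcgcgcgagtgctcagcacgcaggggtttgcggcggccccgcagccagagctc
Spry2, chr14:105896770-105897069, minus strand: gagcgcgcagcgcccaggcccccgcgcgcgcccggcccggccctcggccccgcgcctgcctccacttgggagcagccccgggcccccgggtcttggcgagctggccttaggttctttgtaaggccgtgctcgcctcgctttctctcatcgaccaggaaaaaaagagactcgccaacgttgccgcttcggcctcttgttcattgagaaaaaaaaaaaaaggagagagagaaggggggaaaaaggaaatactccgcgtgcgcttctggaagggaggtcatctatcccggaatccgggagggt
Spred2, chr11:19924192-19924491, plus strand: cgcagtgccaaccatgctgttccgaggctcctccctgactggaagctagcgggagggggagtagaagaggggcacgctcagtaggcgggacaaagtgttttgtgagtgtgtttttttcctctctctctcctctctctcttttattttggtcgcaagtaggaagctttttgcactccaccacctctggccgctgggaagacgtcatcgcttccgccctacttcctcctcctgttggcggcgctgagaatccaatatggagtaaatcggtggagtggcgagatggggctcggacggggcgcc

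The Dusp5 promoter held 2 CArG boxes side by side, the first base of each at -82 and -72 from the start, and 1.63% of 32851 mouse promoters of this length held at least 1. The Dusp1 promoter held a cAMP response element at -143 (1.79% of promoters), and the Dusp2 promoter an EGR element at -98 (5.55% of promoters). No AP-1 element (7.81% of promoters) and no ETS element (3.89%) was found in the 8 promoters. A match is a run of letters and not a measured binding site, and the promoters are those of the mouse, whereas the members called in the comparisons were called in the rat.

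Library totals ran from 14324700 counts in an AdMETTL5 library to 21804907 in a METTL5-cKO TAC library. In NRVMs every AdMETTL5 library (14324700 to 14642431 counts) had a lower total than every AdGFP library (17344430 to 18085339). Depth and virus therefore cannot be told apart there. Control library 1 at 1 month stood apart, with the lowest sum of the cardiomyocyte markers in its table (23553 CPM, counts per 1000000 on TMM-scaled library sizes, where the other 7 libraries had 28742 to 37601) and the highest sum of the macrophage markers (308 CPM, others 146 to 217). METTL5-cKO TAC library 4 lay nearer to the control hearts than the other libraries of its group in both its cardiomyocyte and its fibroblast markers (values given with the TAC comparison). No marker of cardiomyocytes, fibroblasts, endothelial cells, macrophages or smooth muscle that a table lists was at 0 in every library of that table. The count of the whole Mettl5 gene did not separate the genotypes in any of the mouse comparisons (log2 fold changes of 0.22, -0.18 and -0.036, adjusted p = 0.973, 0.884 and 0.874 from edgeR's quasi-likelihood test), so it did not check the labels. A count of the whole gene does not resolve single exons. The paper reports that its reads showed almost nothing of the floxed exons in METTL5-cKO hearts. In NRVMs the viral METTL5 is human, and the count of the rat gene (0.32, adjusted p = 0.00295) does not measure it.

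The level of the members in the unloaded adult heart was taken from the Ctrl hearts at 3 months, as CPM per kilobase of exon (RPKM). Dusp1, the immediate early phosphatase for p38, JNK and ERK, was highest at 17.4 ± 2.76 RPKM (SD, n = 4), followed by Spry1 at 9.23 ± 1.83. Dusp6, the cytoplasmic phosphatase that is specific for ERK, came next at 4.79 ± 0.467, then Spred2 at 4.66 ± 0.680 and Spry2 at 3.94 ± 0.497. Spred1 had 2.88 ± 0.206, Spry4 2.34 ± 0.0887 and Dusp5, the nuclear ERK phosphatase, 1.96 ± 0.276 RPKM. Dusp4 (0.212 ± 0.0286) and Dusp2 (0.173 ± 0.152), both nuclear and inducible, were close to the limit of detection, with 11 to 15 counts of Dusp4 and 0 to 15 counts of Dusp2 per library. The ranges of 4 neighbours in this order overlapped, those of Dusp6 and Spred2, Spred2 and Spry2, Spry4 and Dusp5, and Dusp4 and Dusp2. In the mouse annotation (GRCm38) Dusp4 lies at chr8:34807297-34819894, Dusp6 at chr10:99263231-99267489 and Spred1 at chr2:117121374-117182279, all on the plus strand. Exons of Dusp1, Dusp5 and Spry1 overlap those of another gene on the opposite strand (Ergic1, AC137853.2 and Gm42922), and since the strandedness of the libraries is not given, reads of such partners could not be told apart.

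**Figure D1:**
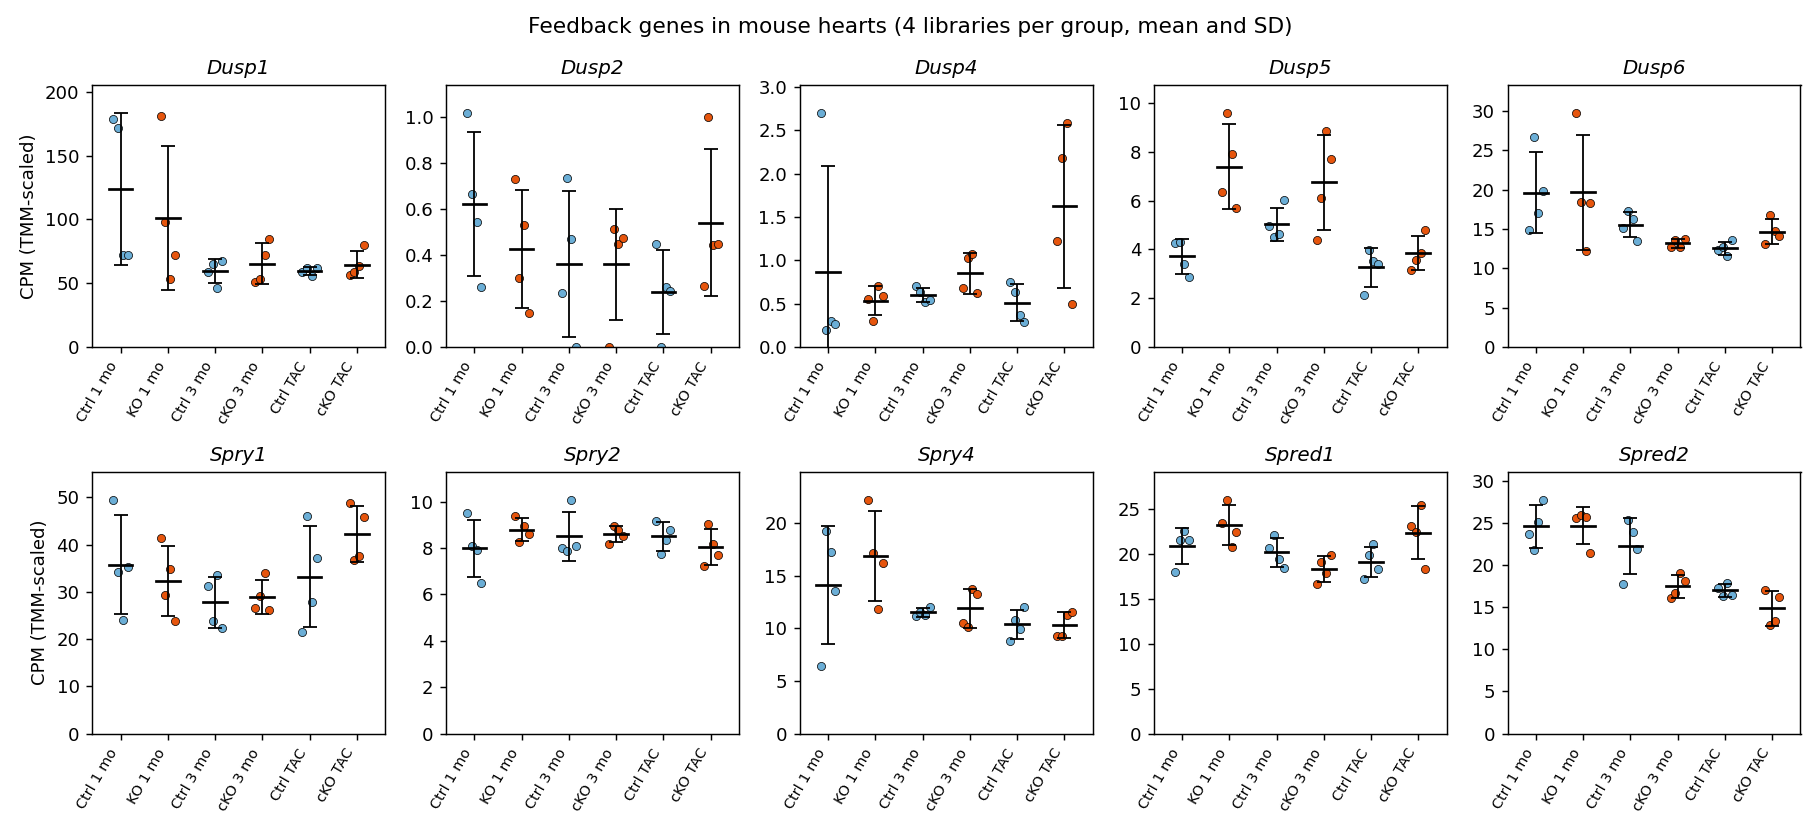
CPM of the 10 feedback genes in each mouse heart library, by group. Points are libraries (4 per group), the thick bar is the mean and the whiskers the SD (cut off at 0 for Dusp4 at 1 month), and each y axis starts at 0. The METTL5-KO points of Dusp5 at 1 month lie above all 4 control points, and 3 of the 4 METTL5-cKO TAC points of Dusp4 lie above all TAC controls.

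The first comparison asked whether the feedback genes were altered when METTL5 was lost from the whole body, in hearts of 1-month-old mice. None of the 10 members passed an adjusted p of 0.05, where 0.00612% of all genes tested did (1 of 16329). By unadjusted p under 0.05, 1 member, Dusp5, was higher, where 4.57% of all genes differed and 2.12% were higher. Its groups were the only ones of the 10 members that did not overlap (3.01% of all genes, 1.52% higher). Dusp5 read 4.27, 4.32, 3.38 and 2.88 CPM in the Ctrl hearts and 6.35, 9.59, 7.89 and 5.68 CPM in the METTL5-KO hearts. Every METTL5-KO heart was thus above every control. Its log2 fold change was 0.99 (standard error, SE, 0.203, 95% interval 0.53 to 1.44), with an adjusted p of 0.966 by edgeR's quasi-likelihood test. The exact two-sided permutation test of its log2 CPM gave p = 0.0286, the smallest that 4 against 4 libraries can give. With any 1 library omitted the log2 fold change stayed between 0.84 and 1.09, and the adjusted p was never below 0.538.

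Some of the other members varied widely among 1-month hearts of either genotype. Dusp1 ranged from 72.1 to 179 CPM in the Ctrl and from 52.9 to 181 CPM in the METTL5-KO hearts, so that its interval ran from -1.27 to 0.68 on the log2 scale. Dusp4 read 2.70 CPM in control library 1 (69 counts) but 0.190, 0.302 and 0.261 CPM in the other controls, against 0.549, 0.298, 0.705 and 0.583 CPM in the METTL5-KO hearts. The log2 fold change of Dusp4 was therefore -0.75 with this library and 1.10 without it (adjusted p = 0.973 and 0.751 by edgeR). Spry1 likewise turned from -0.15 to 0.053 without control library 1. Spry4 read 6.42, 19.2, 17.2 and 13.54 CPM in the Ctrl and 22.2, 17.2, 11.8 and 16.2 CPM in the METTL5-KO hearts, with control library 1 the lowest (log2 fold change 0.26, 95% interval -0.44 to 0.96, adjusted p = 0.973 by edgeR). Dusp6 was as uneven, at 14.8 to 26.7 CPM in the Ctrl and 12.3 to 29.8 CPM in the METTL5-KO hearts (interval -0.60 to 0.61). Dusp2 had 3 to 26 counts per library, and its interval ran from -1.69 to 0.58. Spry2 (6.48 to 9.51 CPM over the 8 libraries), Spred1 (18.004 to 26.1) and Spred2 (21.4 to 27.8) had log2 fold changes of 0.14, 0.15 and 0.0048, and their intervals did not reach beyond 0.42 in either direction. Over the 10 members the median log2 fold change was 0.0049, and over all genes tested it was -0.0067. No cell type marker passed an adjusted p of 0.05 by edgeR here. The log2 fold change was negative for all 10 endothelial markers. It was positive for 8 of 10 cardiomyocyte, 8 of 10 fibroblast, 6 of 10 macrophage and 4 of 8 smooth muscle and pericyte markers. The endothelial markers summed to 1133 to 1293 CPM in the Ctrl and 931 to 1111 CPM in the METTL5-KO hearts. The part of these shifts in the levels of the members was not tested.

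The second comparison asked the same of cardiomyocyte-specific loss in unoperated adult hearts. At 3 months none of the 10 members passed an adjusted p of 0.05 (0.0732% of all genes did), and no member had groups that did not overlap (4.23% of all genes). Dusp6 and Spred2 were the 2 members under an unadjusted p of 0.05, where 7.05% of all genes were, and both were lower (3.43% of all genes). Spred2, an inhibitor of the step below Ras, read 17.8, 25.4, 23.9 and 21.96 CPM in the Ctrl hearts and 16.1, 16.7, 19.1 and 18.2 CPM in the METTL5-cKO hearts. Only the lowest control fell within the METTL5-cKO range. Its log2 fold change was -0.35 (SE 0.122, 95% interval -0.62 to -0.07, adjusted p = 0.567 by edgeR). Dusp6 read 15.2, 17.2, 16.2 and 13.5 CPM in the Ctrl and 12.7, 13.6, 12.7 and 13.7 CPM in the METTL5-cKO hearts. Here too 1 control lay among the METTL5-cKO values, and the log2 fold change was -0.24 (SE 0.0992, adjusted p = 0.672). Dusp5 leaned the other way, with 4.38, 6.08, 8.84 and 7.70 CPM in the METTL5-cKO and 4.52 to 6.00 CPM in the Ctrl hearts (log2 fold change 0.43, 95% interval -0.04 to 0.89, adjusted p = 0.743). The Sprouty genes had log2 fold changes of 0.062 (Spry1), 0.016 (Spry2) and 0.048 (Spry4), with intervals of -0.27 to 0.40, -0.23 to 0.26 and -0.22 to 0.32. Dusp4 had the largest log2 fold change of the members here, 0.50 (95% interval -0.07 to 1.07, adjusted p = 0.772), from 0.518 to 0.699 CPM in the Ctrl and 0.618 to 1.08 CPM in the METTL5-cKO hearts, which are 11 to 24 counts. Dusp1 (46.4 to 67.7 and 50.9 to 84.7 CPM) had an interval of -0.27 to 0.53, and Spred1 (18.5 to 22.2 and 16.7 to 19.96 CPM) one of -0.35 to 0.08. Dusp2 had 0 to 15 counts per library, and its interval ran from -1.87 to 1.89. No cell type marker passed an adjusted p of 0.05 by edgeR here. All 10 cardiomyocyte and all 10 endothelial markers had a negative log2 fold change. All 10 macrophage, 9 of 10 fibroblast and 4 of 8 smooth muscle and pericyte markers had a positive one. The cardiomyocyte markers summed to 46664 to 49910 CPM in the Ctrl and 41728 to 46657 CPM in the METTL5-cKO hearts. The part of these shifts in the levels of the members was not tested.

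After 4 weeks of TAC the question was whether loss of METTL5 in cardiomyocytes altered the feedback genes of the loaded heart. Here 12.7% of all genes passed an adjusted p of 0.05, but 0 of the 9 members tested did. By unadjusted p under 0.05 there were 2 (Dusp4 and Dusp6, both higher), where 31.0% of all genes passed and 15.2% were higher. DESeq2 called 1 member, Dusp4, at an adjusted p of 0.05, where it called 16.9% of all genes. The groups of every member tested overlapped, whereas those of 18.6% of all genes did not.

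Dusp4, a nuclear phosphatase for ERK and JNK, came closest. It read 0.743, 0.631, 0.364 and 0.291 CPM in the Ctrl TAC hearts and 1.23, 2.18, 2.58 and 0.499 CPM in the METTL5-cKO TAC hearts, which are 6 to 15 and 10 to 64 counts. Thus 3 METTL5-cKO hearts were above all controls and library 4 was among them. The log2 fold change was 1.68 (SE 0.494, 95% interval 0.57 to 2.79, adjusted p = 0.0535 by edgeR). With any 1 library omitted it was 1.36 to 1.97, with adjusted p from 0.00534 to 0.139. The lowest adjusted p and the value of 1.97 came without METTL5-cKO library 4. Then 2 members were called, Dusp4 and Spred1, among 23.4% of all genes. DESeq2 gave Dusp4 a log2 fold change of 1.70 with an adjusted p of 0.0230. Marker genes of other cells moved with the genotype in these hearts. The sum of the 10 fibroblast markers was 548 to 679 CPM in the Ctrl TAC hearts and 2476, 1705, 1662 and 824 CPM in METTL5-cKO TAC libraries 1 to 4, and 6 of the 10 markers rose. The sum of the 10 cardiomyocyte markers was 45043 to 49773 CPM in the controls and 35239, 33340, 33719 and 42768 CPM in the METTL5-cKO hearts, and 3 of the 10 fell. Of the endothelial markers 6 of 10 fell (885 to 1028 CPM in sum in the controls, 628 to 810 CPM in the METTL5-cKO hearts), and 3 of 10 macrophage markers rose (216 to 294 and 295 to 391 CPM). Of the 8 smooth muscle and pericyte markers 1 rose and 1 fell (666 to 718 and 545 to 687 CPM). The library that was lowest in Dusp4 was thus also the lowest of its group in fibroblast and the highest in cardiomyocyte markers. The part of cell make-up in the level of Dusp4 was not tested, and in whole hearts fewer cells of a type and less RNA per cell cannot be told apart.

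Dusp6 read 12.3, 12.7, 11.6 and 13.6 CPM in the Ctrl TAC and 13.1, 16.8, 14.7 and 14.2 CPM in the METTL5-cKO TAC hearts. A single METTL5-cKO value lay among the controls, and the log2 fold change was 0.23 (SE 0.0953, 95% interval 0.01 to 0.44, adjusted p = 0.138 by edgeR). Spred1, which recruits neurofibromin to Ras, read 17.3, 19.9, 21.1 and 18.4 CPM in the controls and 23.2, 22.5, 25.5 and 18.4 CPM in the METTL5-cKO hearts. Again only library 4 was within the control range (log2 fold change 0.23, adjusted p = 0.195, and 0.32 with an adjusted p of 0.0372 without that library). With any 1 library omitted the log2 fold change of Spred1 was 0.16 to 0.32, with adjusted p up to 0.386. Spry1 was uneven among the controls, at 21.6, 46.0, 27.8 and 37.2 CPM, against 36.6 to 48.7 CPM in the METTL5-cKO hearts (log2 fold change 0.35, adjusted p = 0.298). It was 0.20 without Ctrl TAC library 1 and 0.55 without Ctrl TAC library 2, and the adjusted p was not below 0.114 with any 1 library omitted. Spred2 was the member furthest to the other side, at 16.4 to 17.9 CPM in the controls and 17.1, 12.8, 13.4 and 16.2 CPM in the METTL5-cKO hearts (log2 fold change -0.19, 95% interval -0.43 to 0.04, adjusted p = 0.241). The log2 fold changes of Spry2 and Spry4 were -0.083 and -0.010, and both turned positive when the counts were scaled by library size alone (0.067 and 0.13), which moved the median log2 fold change of all genes from -0.0034 to 0.14. Dusp1 (0.12) and Dusp5 (0.23) had intervals that included 0. Dusp2, with 0 to 22 counts per library, did not pass the filter and was listed at 0.446, 0, 0.260 and 0.242 CPM in the Ctrl and 0.263, 1.00, 0.444 and 0.449 CPM in the METTL5-cKO TAC hearts. The median log2 fold change of the 9 members was 0.23, beside -0.0034 for all genes tested.

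The effect of METTL5 loss after TAC was then set against its effect in unoperated hearts, by an interaction term over the 16 libraries of both tables. No member passed an adjusted p of 0.05 (0.00586% of 17070 genes did), and by unadjusted p under 0.05 there were 2 (11.8% of all genes), Dusp6 and Spred1. For Dusp6 the 2 effects differed by 0.48 on the log2 scale (SE 0.128, 95% interval 0.21 to 0.75), with an adjusted p of 0.160 by edgeR. The difference of Dusp6 was 0.41 to 0.54 with any 1 library omitted, with adjusted p from 0.0654 to 0.324. For Spred1 the difference was 0.38 (SE 0.145, adjusted p = 0.321). For Dusp4 it was 1.20, with an interval of -0.09 to 2.48. The surgery and the table differ between these hearts, and their parts cannot be told apart. The marker values given above for both states stand beside these differences as well.

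**Figure D2:**
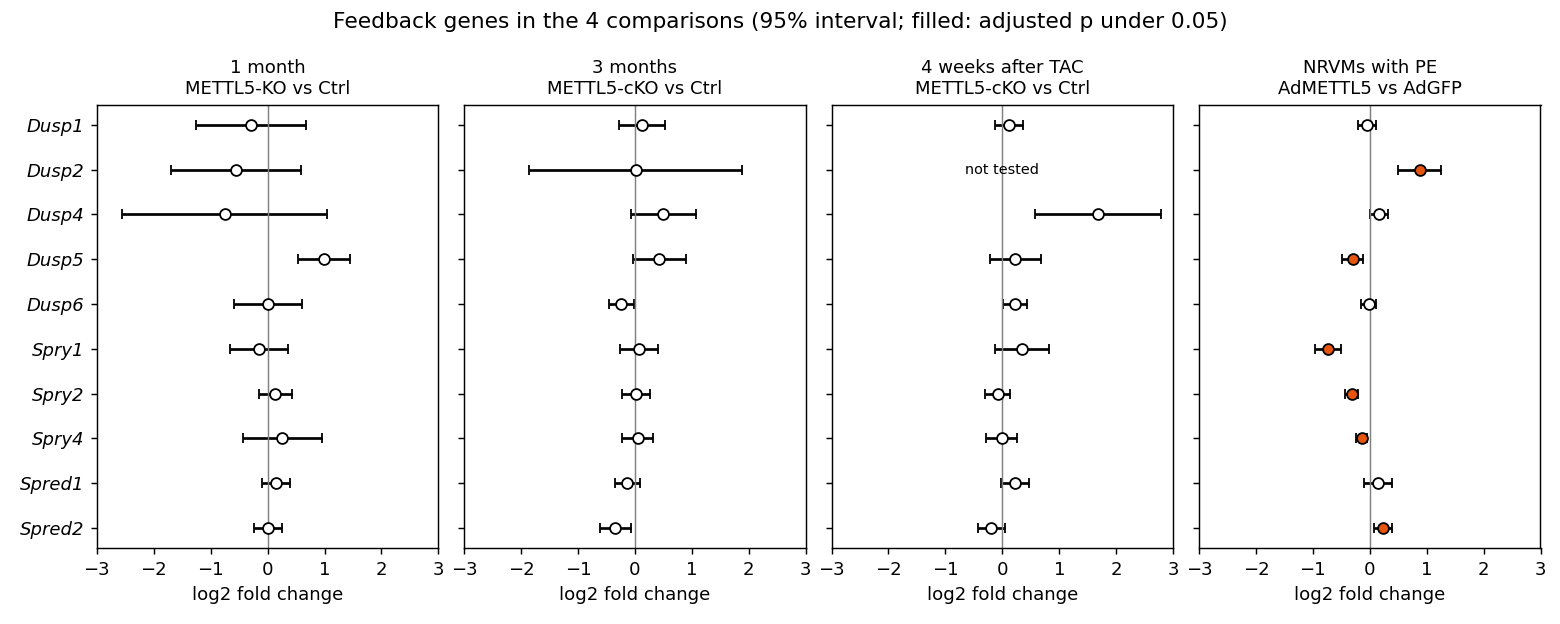
Log2 fold change (x axis) of each feedback gene (y axis) in the 4 comparisons, METTL5-KO, METTL5-cKO or AdMETTL5 minus its control, with 95% intervals from edgeR. Filled points passed an adjusted p of 0.05, which 6 of 10 members did in NRVMs and none did in the mouse hearts. Of all genes tested, 52.8% passed in NRVMs, and 0.00612%, 0.0732% and 12.7% in hearts at 1 month, at 3 months and after TAC.

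In PE-treated NRVMs the comparison asked what a gain of METTL5 did to the feedback genes under a hypertrophic stimulus. With AdMETTL5 the 3 Sprouty genes and Dusp5 fell, and Dusp2 and Spred2 rose, so that 6 of the 10 members passed an adjusted p of 0.05. This is to be read against 52.8% of all genes that passed, 27.1% higher and 25.7% lower. The same 6 members had groups that did not overlap (48.4% of all genes, 25.2% higher and 23.2% lower), and none reached a log2 fold change of 1 in either direction, which 5.85% of all genes did. The sum of the 10 members was 699 ± 4.08 CPM with AdGFP and 612 ± 20.1 CPM with AdMETTL5 (SD, n = 4). This sum weighs each member by its level and rests on the TMM scaling. In mean CPM the widest falls were those of Spry1 (153 to 91.9) and Spry2 (127 to 102). Of the 10 members 6 had a negative and 4 a positive log2 fold change. The median log2 fold change of the members was -0.036, and that of all genes was -0.0022.

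Spry1 had the widest fall. It read 139, 137, 173 and 162 CPM with AdGFP and 87.5, 82.4, 83.8 and 114 CPM with AdMETTL5. All AdMETTL5 libraries were below all AdGFP libraries, with AdMETTL5 library 4 nearest to them. The log2 fold change was -0.73 (SE 0.105, 95% interval -0.96 to -0.50, adjusted p = 0.000104 by edgeR), and it was -0.85 to -0.67 with any 1 library omitted. Spry2 went from 130, 133, 121 and 122 CPM to 99.9, 99.9, 97.3 and 111 CPM (log2 fold change -0.31, SE 0.0523, adjusted p = 0.000337). The fall of Spry4 was small, from 80.1, 80.3, 79.8 and 77.6 CPM to 70.1, 71.0, 70.6 and 76.3 CPM (log2 fold change -0.14, SE 0.0443, adjusted p = 0.0169). Library 4 was the highest AdMETTL5 library for each of the 3 Sprouty genes. Without AdMETTL5 library 1 the adjusted p of Spry4 was 0.0514. For each of the 6 members called, the exact two-sided permutation test gave p = 0.0286, the smallest possible here. This test and that of edgeR take the AdGFP libraries as independent. In their counts AdGFP libraries 1 and 2 were alike, as were 3 and 4 (values given with the processing).

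Among the phosphatases, Dusp5 read 40.2, 40.7, 48.9 and 51.6 CPM with AdGFP and 37.8, 37.2, 33.8 and 39.0 CPM with AdMETTL5. The gap between the groups was narrow next to the spread within AdGFP, and the log2 fold change was -0.30 (SE 0.0848, adjusted p = 0.0108 by edgeR). Dusp2 rose from 2.01, 1.56, 1.81 and 1.80 CPM to 4.11, 2.55, 3.15 and 3.43 CPM, which are 26 to 34 and 38 to 61 counts. Its log2 fold change of 0.88 was the largest rise among the members (SE 0.172, adjusted p = 0.00104), at a level far below that of the other phosphatases in CPM. Dusp1, Dusp4 and Dusp6 did not pass the test. Dusp6 read 54.5 to 65.1 CPM with AdGFP and 57.7 to 59.8 CPM with AdMETTL5, with an interval of -0.16 to 0.12 on the log2 scale. Dusp1 (85.4 to 107 and 87.7 to 100.5 CPM) had an interval of -0.21 to 0.10. Dusp4 read 107, 114, 93.4 and 111 CPM with AdGFP and 114, 118, 133 and 108 CPM with AdMETTL5 (log2 fold change 0.16, adjusted p = 0.0915). It passed with an adjusted p of 0.0449 without AdMETTL5 library 4, and with any 1 library omitted the adjusted p ran up to 0.288. In these cells Dusp4 had 1601 to 2034 counts per library, whereas the heart tables held 4 to 69 counts of it, but the tables differ in species and annotation and were not compared.

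Of the Spred genes 1 passed. Spred2 read 17.96, 19.5, 20.8 and 22.02 CPM with AdGFP and 22.4, 22.8, 25.6 and 23.6 CPM with AdMETTL5. The highest AdGFP and the lowest AdMETTL5 library nearly touched, and the log2 fold change was 0.23 (SE 0.0743, adjusted p = 0.0187 by edgeR). Its adjusted p was 0.0511 without AdGFP library 1 and 0.0656 without AdMETTL5 library 3. Spred1 read 8.06 to 10.1 CPM with AdGFP and 8.23 to 11.3 CPM with AdMETTL5, with a log2 fold change of 0.15 (95% interval -0.09 to 0.39, adjusted p = 0.286).

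The directions in NRVMs depend in part on how the libraries were scaled. With scaling by library size alone the median log2 fold change of all genes moved from -0.0022 to 0.13, and 3 members were higher and 2 lower, in place of 2 and 4, where 54.6% of all genes passed. Spry1, Spry2, Dusp2 and Spred2 were called in the same direction under both scalings. Dusp4 joined the higher ones (0.29, adjusted p = 0.00325 by edgeR), Dusp5 (-0.17, adjusted p = 0.186) and Spry4 (-0.0070, adjusted p = 0.920) no longer passed, and Dusp1 and Dusp6, not called, changed sign. The sum of the 9 cardiomyocyte markers listed for the rat was 33963 to 43092 CPM with AdGFP and 14799 to 16550 CPM with AdMETTL5, and all 9 fell. Of 9 fibroblast markers 7 fell (9449 to 9936 CPM in sum with AdGFP, 7575 to 8343 with AdMETTL5), and 4 of 8 smooth muscle and pericyte markers rose (2991 to 3776 and 3595 to 4167 CPM). Of 8 endothelial markers tested 2 rose, and of 6 macrophage markers tested 3 fell. The 9 endothelial markers listed summed to 63.8 to 67.4 CPM with AdGFP and 79.02 to 83.9 CPM with AdMETTL5. For the 9 macrophage markers listed the sums were 105.4 to 123.6 and 80.8 to 90.3 CPM. The part of these shifts in the levels of the feedback genes was not tested.

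**Figure D3:**
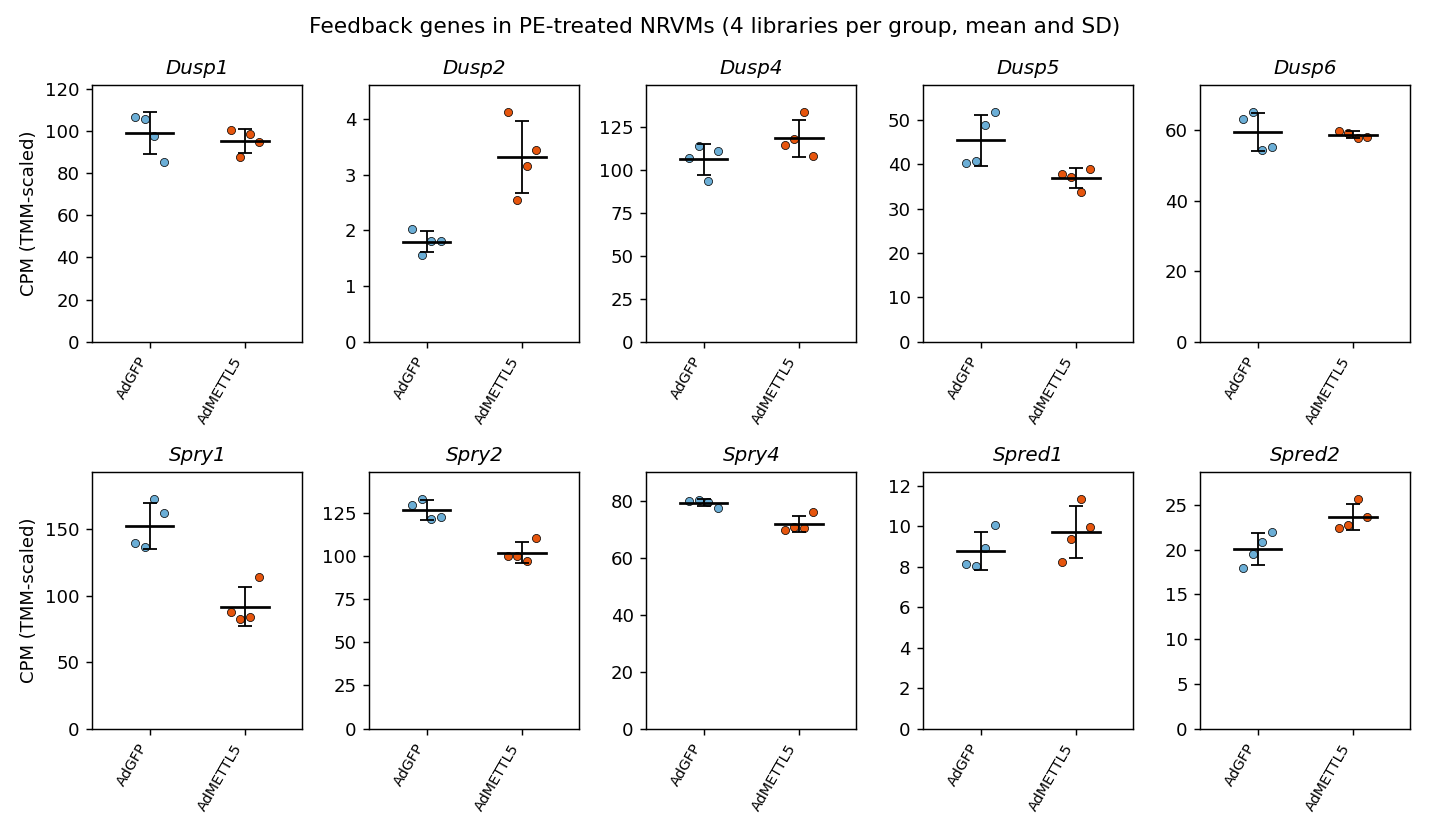
CPM of the 10 feedback genes in each PE-treated NRVM library with AdGFP or AdMETTL5. Points are libraries (4 per group), the thick bar is the mean and the whiskers the SD, and each y axis starts at 0. The groups of Spry1, Spry2, Spry4 and Dusp5 are separate with AdMETTL5 lower, those of Dusp2 and Spred2 are separate with AdMETTL5 higher, and those of the other 4 overlap. Of all genes tested, 48.4% had separate groups.

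The rest of the ERK pathway was read by role, from lists of other inhibitors, ligands, receptors, cascade members and genes that respond to ERK. The lists were chosen with earlier results of these data known, so their counts and medians are a description and not a test. At 1 month and at 3 months none of the genes tested in these 5 lists passed an adjusted p of 0.05, where 0.00612% and 0.0732% of all genes did. After TAC, 9 of the 23 ERK-responsive genes tested rose and none fell (6.57% of all genes rose and 6.10% fell), with a median log2 fold change of 0.34 beside -0.0034 for all genes. The leading 3 were Egr2, an early growth response factor (2.35, SE 0.295), the growth regulator Myc (1.36, 0.237) and the AP-1 subunit Junb (0.89, 0.171), with adjusted p of 0.00549, 0.0125 and 0.0154 by edgeR. Among ligands 5 of 19 rose and 4 fell. Hbegf, a ligand of the EGF receptor, rose from 14.03 ± 3.32 to 41.2 ± 13.01 CPM (SD, n = 4). Ereg, another such ligand, rose from 0.0855 ± 0.115 to 1.58 ± 0.8286 CPM, and Egf fell from 3.18 ± 1.10 to 1.38 ± 0.230 CPM. Ereg was near the floor in the controls and passed the filter on low counts only through the METTL5-cKO libraries, where it was higher. Of 17 receptors 3 rose, Fgfr1 (0.65), Igf1r (0.44) and Met (1.30), and none fell. In the cascade 1 of 21 genes rose, the MEK gene Map2k1 (0.38), and 2 fell, among them the ERK-dependent kinase gene Rps6ka2 (-0.41). None of the 13 other inhibitors tested passed. The marker shifts of these hearts given above stand beside these values as well.

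**Figure D4:**
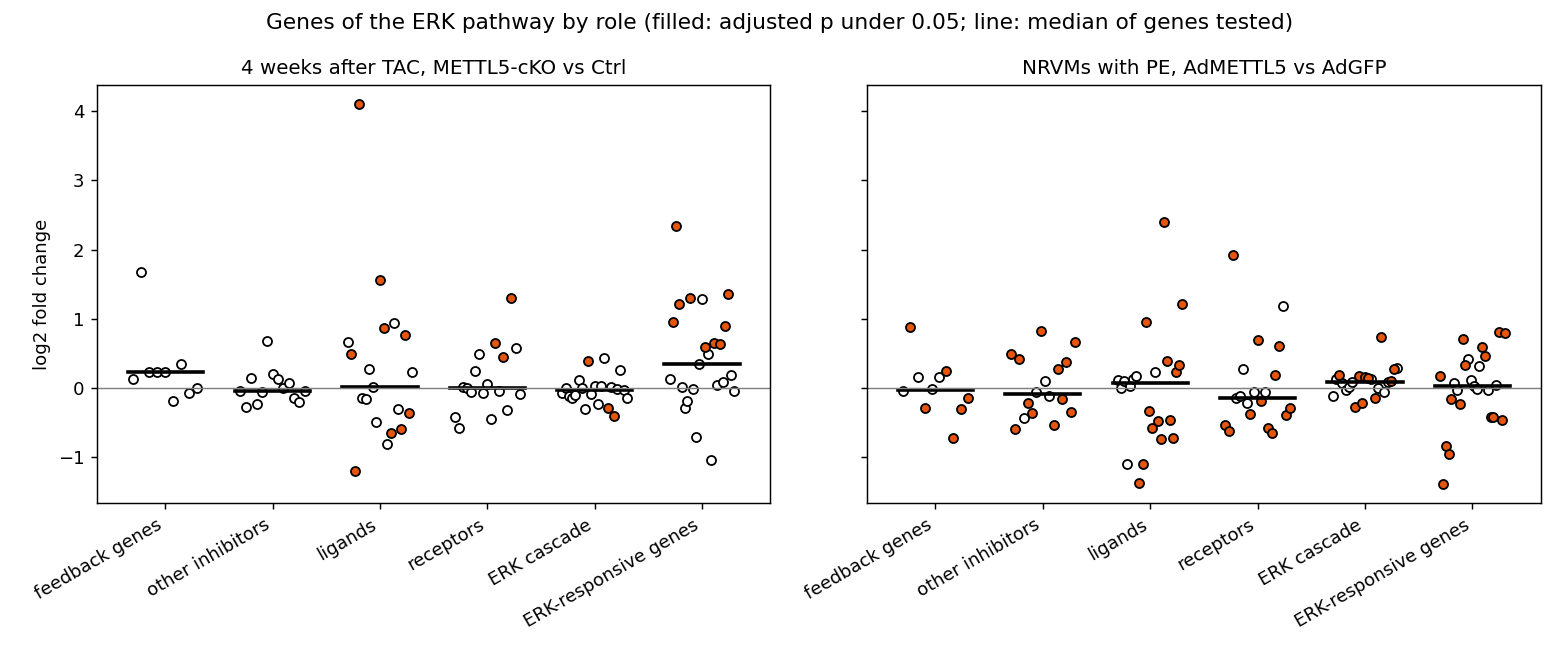
Log2 fold change (y axis) of every tested gene of the feedback genes and of 5 lists of the ERK pathway (x axis), after TAC on the left and in NRVMs on the right. Filled points passed an adjusted p of 0.05, and the line is the median of the genes tested, which for the feedback genes was 0.23 after TAC and -0.036 in NRVMs.

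In NRVMs the lists moved both ways. Among 24 ERK-responsive genes 7 rose and 8 fell. Egr1 fell from 139.7 ± 11.4 to 53.0 ± 5.51 CPM (SD, n = 4, log2 fold change -1.40) and Egr2 from 17.3 ± 1.11 to 9.67 ± 0.599 CPM (-0.84), whereas Myc rose from 37.3 ± 1.34 to 65.0 ± 1.90 CPM (0.80). Of 22 ligands 6 rose and 8 fell. The stem cell factor gene Kitlg rose by 2.40 on the log2 scale and Tgfa, a ligand of the EGF receptor, by 1.21, and Fgf18 fell by 1.10. Of 19 receptors 4 rose and 8 fell. The α1-adrenergic receptor genes, whose products bind PE, differed among themselves, since Adra1d rose by 1.92 from 3.22 ± 0.588 CPM and Adra1b fell by 0.62 from 24.6 ± 2.72 CPM, and Kit, the receptor of the Kitlg product, rose by 0.60. In the cascade 7 of 21 genes rose and 3 fell, with Rps6ka1 (0.73) and the Ras activator Sos1 (0.27) higher and the MEK gene Map2k2 (-0.22) lower. Of 16 other inhibitors 6 rose and 6 fell, led by the receptor inhibitor Lrig1 (-0.54), the cytoplasmic ERK phosphatase Dusp7 (-0.37) and Dusp16, a phosphatase for JNK and p38 (0.41). The adjusted p of each gene named here was at most 0.00202 by edgeR. A count in either direction over these lists is to be read against the 27.1% of all genes that rose and the 25.7% that fell.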

How the data were processed

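RNA of 24 mouse heart libraries and 8 NRVM libraries was read from 4 deposited tables, 1 per comparison. Per the processing notes, the authors aligned reads to GRCm38 or Rnor_6.0 with HISAT2 2.0.4 and obtained counts with StringTie 2.1.4, and their own tests used DESeq2 1.4.5. The deposited values are estimated counts in whole numbers, not scaled between libraries, so rounding changed nothing. The plan had taken them for plain counts. Strandedness is not given in the sources used here. At 1 month and for AdMETTL5, columns were matched to single samples, and elsewhere to a group only, with libraries numbered by column name.

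Quasi-likelihood tests (glmQLFit and glmQLFTest in edgeR 4.0.16 under R 4.3.3) were run on each table separately, on TMM-scaled library sizes, after filterByExpr at a minimum count of 10 and a total of 15, and Benjamini-Hochberg adjustment over all genes tested. A member was called at an adjusted p under 0.05. The study's methods name DESeq2 (here 1.42.0), which was run as an alternative. CPM use TMM-scaled library sizes, and the exact permutation test used log2 CPM (prior count 2) over 70 labelings. RPKM used the union of exons in GENCODE, with the 24 mouse libraries scaled together. The smallest chi-square between libraries of a group was 2.14 per degree of freedom, so all were kept as separate libraries. In AdGFP it was 3.30 between libraries 1 and 2 and 3.05 between libraries 3 and 4. Across these pairs it was 8.72 to 11.4. The labels do not say what the libraries of a pair share, and the tests took all AdGFP libraries as independent. The steps were tested on simulated data.

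All 10 members were named in every comparison, and of each pathway list the 3 called genes with the smallest adjusted p, apart from 1 gene that is not reported here. The members and lists were chosen with earlier results of these data known. The alternatives were DESeq2, its size factors, library size alone, other filters and thresholds, omission of single libraries and, at 1 month, the replicate block.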

Additional observations from a re-analysis of the deposited data

Results flagged for a closer look

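Libraries were checked for values that stood apart from the other 3 of their group, in 80 groups of 4 (10 members in 8 groups), where chance flags about 1 in 20. By Dixon's test at the 95% level 6 values did. Dusp4 in Ctrl library 1 at 1 month was at 2.70 CPM, with the others at 0.190 to 0.302 CPM. Dusp2 in METTL5-cKO library 1 at 3 months was at 0 CPM, with the others at 0.449 to 0.515 CPM. Spry2 in Ctrl library 3 at 3 months was at 10.1 CPM, with the others at 7.86 to 8.09 CPM. Spred2 in METTL5-KO library 4 at 1 month was at 21.4 CPM, with the others at 25.6 to 25.9 CPM. In NRVMs, AdMETTL5 library 4 stood apart for Spry1 (114 CPM, others 82.4 to 87.5 CPM) and for Spry4 (76.3 CPM, others 70.1 to 71.0 CPM).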

How the results depend on the processing

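In the mouse hearts the count of members called was 0 at 1 and 3 months under every alternative except an unadjusted p. Under these at most 0.0600% and 0.599% of all genes were called. An unadjusted p gave 1 and 2 members, where 4.57% and 7.05% of all genes passed. After TAC the count of members was 1 with DESeq2 and 1 with scaling by library size alone (Dusp4 each time, 1.70 and 1.86), where 16.9% and 15.8% of all genes were called. It was 2 by an unadjusted p (31.0% of all genes), and 0 to 2 with libraries left out (2.87% to 23.4%). In NRVMs it was 0 with a minimum absolute log2 fold change of 1 (5.85% of all genes) and 5 to 7 with libraries left out (46.4% to 50.7%). It was 5 with library size alone (54.6%) and 6 otherwise, with 36.7% of all genes called with no filter, 46.0% with DESeq2 and 54.9% with at least 10 counts in every library. The interaction called no member under any alternative run. With libraries left out, log2 fold changes that changed sign ranged at 1 month from -1.08 to 1.10 (Dusp4), -0.27 to 0.19 (Dusp6), -0.29 to 0.053 (Spry1) and -0.046 to 0.069 (Spred2), and at 3 months from -0.024 to 0.22 (Dusp1), -0.41 to 0.61 (Dusp2), -0.032 to 0.17 (Spry1), -0.021 to 0.11 (Spry2) and -0.037 to 0.11 (Spry4). They ranged from -0.078 to 0.073 for Spry4 after TAC, from -0.12 to 0.15 (Dusp1) and -0.13 to 0.039 (Spry4) for the interaction, and from -0.063 to 0.022 for Dusp6 in NRVMs. Spry4 after TAC was 0.0068 with DESeq2, 0.0070 with no filter and 0.13 with library size alone, which also turned Spry2 after TAC (0.067), Spry4 in the interaction (0.037), and Dusp1 (0.086) and Dusp6 (0.12) in NRVMs. The cause was not tested. The low counts of Dusp2 and Dusp4 in hearts limit what could be detected there.

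Replicate numbers were shared by both groups at 1 month only. Same-numbered libraries had correlations of 0.24, 0.12, -0.11 and 0.08 of their deviations from the group means, so the numbers were not taken to pair them. With the replicate number as a block 0 members were called, as without it (0.00612% of all genes each time), and Dusp6 turned to -0.033.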

Other observations

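The members were also read for likeness within groups, as deviations of log2 CPM from the group means, given as a description. Over the 24 mouse libraries, which share tissue and depth, 21 of 36 pairs of the 9 members tested in every mouse table had a positive Pearson's r, with a median of 0.052. Single pairs ran from -0.72 (Dusp4 with Spry4) to 0.66 (Dusp6 with Spry4). Over the 8 NRVM libraries 23 of 45 pairs were positive, with a median of 0.0071, from -0.81 (Dusp5 with Dusp6) to 0.88 (Spred1 with Spred2). The genes whose deviations were most like those of Dusp6 in the hearts were Smarcd1 (Pearson's r = 0.80), Ctla4 (0.78), Rad51ap1 (0.76), Ntf3 (0.76) and Bcl2l12 (0.75), picked from 15543 genes. Taken on ranks (Spearman), the correlations of these heart genes with Dusp6 were 0.46 (Rad51ap1) to 0.71 (Ctla4). In NRVMs the genes most like Dusp6 were St3gal2 (0.99), Ctnna1 (0.99), AABR07039438.1 (0.99), Bcs1l (0.99) and Tmem51 (0.98), picked from 15041 genes over 8 libraries. No feedback gene was among either 5. In NRVMs Dusp6 read 63.2 and 65.1 CPM in AdGFP libraries 1 and 2 and 54.5 and 55.3 CPM in AdGFP libraries 3 and 4. With AdMETTL5 it read 57.7 to 59.8 CPM, so the NRVM likeness rests largely on the difference among the AdGFP libraries.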
